A study of Mus musculus with 6 samples.

Results

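The muscle acetylcholine receptor and the proteins that gather it at the nerve contact were followed on 6 arrays of mouse cells labelled as satellite cells. The set held 10 genes, which were the receptor subunits Chrna1, Chrnb1, Chrnd, Chrng and Chrne, the kinase Musk, its adaptor Dok7, the scaffold gene Rapsn, the ligand gene Agrn and its receptor gene Lrp4. Members were chosen by gene name and comprised every non-control probe annotated to one of these names. This gave 16 of the 41174 non-control probes and 10 of the 27729 gene names on the array. Each of 6 genes had 2 probes.

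Satellite cells are the resident stem cells of skeletal muscle, and these were collected in proliferation from muscle of female mice. One group carried Magic-F1 in the homozygous state (+/+), an engineered factor derived from hepatocyte growth factor that acts on the receptor MET. The other group was the control, whose sample titles carry the term MLC3F without giving its meaning. Each group had 3 samples, called biological triplicates in the series record, which names no separate animals or cultures. Replicate numbers were read from the sample titles, since the source name ends in rep1 for all 6 samples. P-values reflect the scatter among these arrays alone, and that scatter may be technical. The labels used here give neither the promoter that drives Magic-F1 nor the age of the mice.

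The muscle receptor is a pentameric ion channel that opens when acetylcholine is released by the motor nerve. Embryonic and regenerating muscle uses the gamma subunit, which the epsilon subunit replaces in adult synapses. Agrin released by the nerve binds LRP4, which activates the kinase MuSK. Dok-7 binds MuSK inside the cell and is needed for its activity, and rapsyn links the receptors into clusters. In cultured muscle cells the receptor subunit genes and Musk are switched on as myoblasts differentiate, and E-boxes, the DNA motif that MyoD and myogenin bind, act in receptor subunit promoters.

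Promoter sequences of 4 receptor subunit genes are printed here to show their E-boxes beside the changes given below. The sequences are the 250 bases before the start used in the RefSeq promoter table on GRCm38.p6, read 5′ to 3′ on the gene's strand, with E-boxes (CANNTG, searched on both strands) in capitals. In the Chrne sequence the capitals also mark an N-box, the ETS factor motif CCGGAA. They lie at chr2:73580339-73580588 on the minus strand for Chrna1, chr11:69795938-69796187 on the minus strand for Chrnb1, chr1:87205561-87205810 on the plus strand for Chrng and chr11:70619195-70619444 on the minus strand for Chrne. The outer limits of the gene in the RefSeq gene table reach 29 bases into the Chrnb1 sequence and 19 into the Chrne sequence, counted from the start, and 0 into those of Chrna1 and Chrng.
Chrna1: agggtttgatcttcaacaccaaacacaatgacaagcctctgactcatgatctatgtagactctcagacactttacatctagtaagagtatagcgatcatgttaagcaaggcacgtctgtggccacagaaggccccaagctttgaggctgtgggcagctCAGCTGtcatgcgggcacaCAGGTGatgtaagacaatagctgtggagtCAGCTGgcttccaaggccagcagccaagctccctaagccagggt
Chrnb1: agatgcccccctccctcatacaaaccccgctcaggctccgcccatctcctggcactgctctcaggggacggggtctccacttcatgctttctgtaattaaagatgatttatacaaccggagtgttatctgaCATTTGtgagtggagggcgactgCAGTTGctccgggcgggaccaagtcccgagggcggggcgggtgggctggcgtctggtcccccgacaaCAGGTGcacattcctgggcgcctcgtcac
Chrng: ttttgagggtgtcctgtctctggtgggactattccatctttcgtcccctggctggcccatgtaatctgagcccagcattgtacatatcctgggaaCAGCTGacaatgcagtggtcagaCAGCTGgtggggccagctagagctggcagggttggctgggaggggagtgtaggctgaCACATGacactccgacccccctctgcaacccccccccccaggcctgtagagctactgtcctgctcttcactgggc
Chrne: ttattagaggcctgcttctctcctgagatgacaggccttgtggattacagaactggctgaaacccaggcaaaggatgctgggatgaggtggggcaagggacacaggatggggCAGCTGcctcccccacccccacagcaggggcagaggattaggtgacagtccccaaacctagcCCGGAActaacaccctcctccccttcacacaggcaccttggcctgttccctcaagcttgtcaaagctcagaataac

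A window of 300 bases, with 250 before and 50 after the start, was matched for 7 members, and Dok7 and Agrn each had 2 such windows. Chrnd, Rapsn and Lrp4 were not matched. For Musk, 233 of the 250 bases before the start lay inside the outer limits of the gene, as did 195 and 250 for Dok7 and 250 and 45 for Agrn, so these windows are not printed. The windows of Chrna1, Chrnb1, Chrng and Musk each held 3 E-boxes, whereas 17.6% of all 32851 windows of this length held at least 3. Chrne held 1 E-box, at base −138 counted from the start, and the first windows of Dok7 and Agrn each held 1. The form CAGCTG, present in 16.3% of all windows, was found in those of Chrna1, Chrng, Chrne and Musk. An N-box was found in 1 of the 9 member windows, that of Chrne at base −76, and in 14.9% of all windows. A match describes these letters only and shows no binding.

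**Figure D1:**
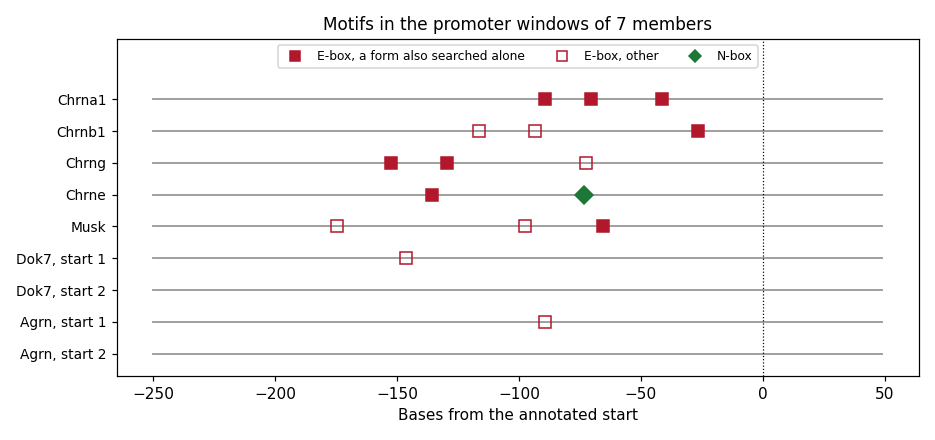
Motifs in the promoter windows of 7 members, drawn along the bases from the annotated start (dotted line) from 250 before to 50 after it. Filled squares are E-boxes of the forms CAGCTG or CAGGTG, open squares other E-boxes and the diamond the N-box, which is seen in the Chrne window alone. Chrna1, Chrnb1, Chrng and Musk each show 3 E-boxes.

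Signals were compared as the processed signal of a probe divided by the 75th percentile of its array, called the relative signal here. The percentile averaged 348 ± 7.68 for Magic-F1 and 282 ± 8.95 for control (SD over 3 arrays each). The scanner software marked 49.2% to 52.0% of spots per array as well above background and 0 as saturated. Testing required that mark on all 3 arrays of 1 group or of both. Of 21188 tested probes, 18591 (87.7%) passed an adjusted p of 0.05 in limma, so that passing the test was the usual outcome. Of all tested probes, 46.5% were called lower in Magic-F1 cells and 41.3% higher.

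The receptor and junction genes were mostly lower in the Magic-F1 samples. Of the 16 member probes, 12 were tested, and they stood for 9 of the 10 genes. All 12 passed the threshold, 11 lower and 1 higher, beside 87.7% of all tested probes. By genes, each represented by its brightest tested probe, 8 were lower and 1 higher, beside 47.9% and 40.5% of all 14737 tested genes, of which 88.3% passed. The direction and size of the change differed more from the rest than the count of calls did. The median log2 change over the 9 tested genes was −2.50, beside −0.15 over all tested genes. Of the 9 genes, 7 were called and at least 4-fold lower in Magic-F1 cells (Chrna1, Chrnb1, Chrnd, Chrng, Musk, Rapsn and Dok7), a size that 12.2% of all tested genes reached. By probes these were 10 of 12, beside 11.4% of all. With normexp, another background correction, 4 genes were at least 4-fold lower (Chrna1, Chrnb1, Chrng and Dok7), beside 5.77% of all tested genes. With arrays scaled by spiked-in transcripts 5 genes were (those 4 and Musk), beside 8.62%. For all 12 probes the Magic-F1 and control values lay apart without overlap, as they did for 89.1% of all tested probes. In RNA of whole samples, fewer cells of a type and less RNA per cell cannot be told apart.

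**Figure D2:**
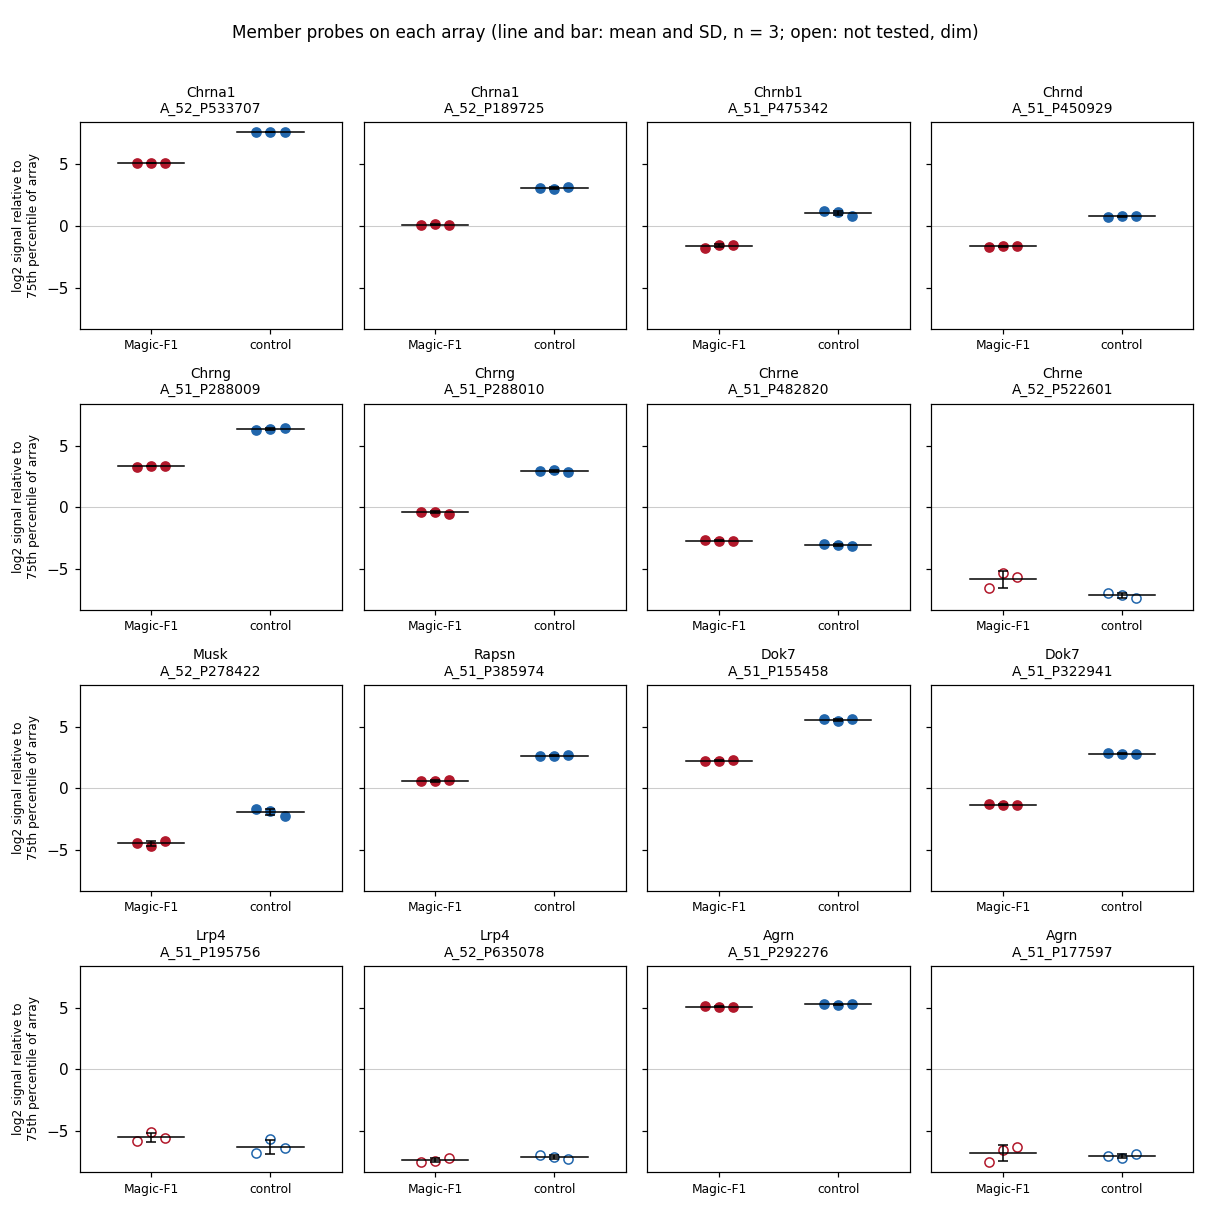
Values of the 16 member probes on each array, as log2 signal relative to the 75th percentile of the array, with Magic-F1 left and control right in each panel. Points are arrays, the line and bar give the mean and SD (n = 3), and open points mark probes that were too dim to test. In 10 panels the Magic-F1 mean lies at least 4-fold below the control mean, while the filled points of Chrne and Agrn lie close to their control level.

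The alpha subunit gene Chrna1, which encodes the chain that carries the acetylcholine binding site, had 2 probes on chromosome 2 of mm9, the build of the array files. At chr2:73404112-73404171 its relative signal was 34.5, 34.7 and 35.1 in Magic-F1 cells, against 193, 199 and 199 in control cells. All Magic-F1 arrays lay far below all control arrays, and Chrna1 was 5.66-fold lower (log2 −2.50, SE 0.04, adjusted p = 5.56e-08 in limma). The probe at chr2:73401390-73401449 had relative signals of 1.06, 1.14 and 1.06 in Magic-F1 cells, against 8.35, 8.09 and 9.10 in control cells. By this probe Chrna1 was 7.82-fold lower (log2 −2.97, SE 0.06, adjusted p = 1.35e-07 in limma). Both probes gave the same direction, and their changes differed by 0.47 on the log2 scale.

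The beta subunit gene Chrnb1 (chr11:69598674-69599242, a probe across a gap) had relative signals of 0.302, 0.352 and 0.349 in Magic-F1 cells, against 2.30, 2.21 and 1.82 in control cells. It was 6.29-fold lower (log2 −2.65, SE 0.11, adjusted p = 1.86e-06 in limma). Control replicate 3 gave the lowest of the control values, still above every Magic-F1 array. The delta subunit gene Chrnd (chr1:89095453-89095512) had relative signals of 0.305, 0.336 and 0.323 in Magic-F1 cells, against 1.70, 1.74 and 1.78 in control cells. It was 5.42-fold lower (log2 −2.44, SE 0.05, adjusted p = 1.44e-07 in limma). The dimmer Chrna1 probe gave −2.97, a larger fall than that of Chrnb1 or Chrnd. With the brighter Chrna1 probe, the falls of the alpha, beta and delta genes lay within 0.21 of each other on the log2 scale. The difference of their log2 changes was −0.15 for Chrnb1 minus Chrna1, −0.21 for Chrnb1 minus Chrnd and −0.06 for Chrna1 minus Chrnd, with 2-sided exact permutation p-values of 0.3, 0.3 and 0.2 over the arrays. With 3 arrays against 3 the smallest p possible was 0.1, so these tests could not pass 0.05 in any case, and they do not show that the falls were equal. The closeness also depended on the processing. For Chrna1, Chrnb1 and Chrnd the changes were −2.16, −2.66 and −2.46 with quantile normalization, and −2.39, −2.12 and −1.93 with normexp.

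The fetal gamma subunit gene Chrng fell most among the receptor genes. One of its probes, at chr1:89108141-89108200, had relative signals of 9.86, 10.1 and 10.1 in Magic-F1 cells, against 77.7, 80.0 and 87.4 in control cells. By this probe Chrng was 8.15-fold lower (log2 −3.03, SE 0.06, adjusted p = 9.14e-08 in limma). The other probe covers 60 bases within chr1:89106072-89106353 of mm9 and is printed here because it also measures the gamma subunit.
Chrng probe: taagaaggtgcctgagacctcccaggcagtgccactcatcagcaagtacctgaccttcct
Its relative signal was 0.778, 0.765 and 0.701 in Magic-F1 cells, against 7.65, 7.99 and 7.38 in control cells, 10.3-fold lower (log2 −3.36, SE 0.06, adjusted p = 7.55e-08 in limma). The fall of Chrng by its brighter probe exceeded that of Chrnb1, Chrna1 and Chrnd by 0.37, 0.53 and 0.59 on the log2 scale. Each of these differences had an exact permutation p of 0.1, the smallest possible.

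The adult epsilon subunit gene Chrne was the tested member that rose, by a small amount. At chr11:70428391-70428450 its relative signal was 0.155, 0.154 and 0.147 in Magic-F1 cells, against 0.127, 0.122 and 0.111 in control cells. The 3 Magic-F1 values lay above the 3 control values, and Chrne was 1.27-fold higher (log2 0.35, SE 0.06, adjusted p = 0.0023 in limma). These are dim spots, with processed signals of 50.3 to 55.4 in Magic-F1 cells and 30.5 to 37.0 in control cells. With normexp the change was 0.10 and the adjusted p 0.0517 in limma, so this call depended on how background was treated. The other Chrne probe, at chr11:70431917-70431976, was well above background on 0 of 6 arrays.

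Relative to Chrng, Chrne was higher in Magic-F1 cells. The ratio of the epsilon signal to the gamma signal changed by 3.37 on the log2 scale (10.4 times) with the brighter gamma probe and by 3.71 (13.1 times) with the other. Both had an exact permutation p of 0.1, the smallest possible, and 0.13 after adjustment over the 14 member comparisons made. A ratio of 2 probes shows an unequal change and no proportion of the subunits. On the same chromosome, Chrnb1 and Chrne lie 818.9 kb apart on GRCm38.p6, with 50 protein-coding genes between them. Chrnd and Chrng, both lower, are neighbours on chromosome 1 with 5740 bases and 0 genes between them.

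**Figure D3:**
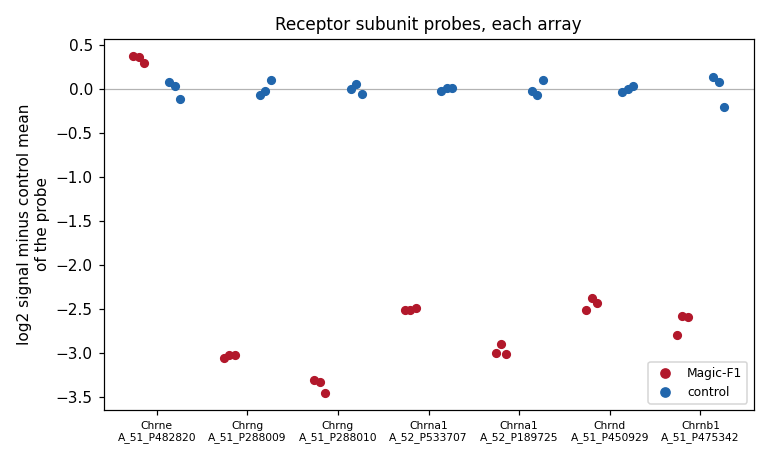
Each array's log2 signal minus the control mean of the same probe, for the receptor subunit probes, with Magic-F1 left of control at each probe. Points are arrays. The Magic-F1 points of Chrne lie above 0, and those of the other 6 subunit probes lie far below it.

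Genes of the clustering machinery fell as well. The MuSK gene was measured at chr4:58386210-58386269 (mm9) by a probe printed here because it read the lowest signals among the members that fell.
Musk probe: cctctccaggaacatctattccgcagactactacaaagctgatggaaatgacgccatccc
Its relative signal was 0.0476, 0.0383 and 0.0517 in Magic-F1 cells, against 0.309, 0.277 and 0.216 in control cells. Musk was 5.81-fold lower (log2 −2.54, SE 0.17, adjusted p = 1.55e-05 in limma), with the widest spread between arrays of the tested members. Processed signals of 13.3 to 17.6 in Magic-F1 cells and 59.4 to 90.3 in control cells were low, and with normexp the log2 change was −1.04. Within the slide that held replicates 1 and 3 the change was −2.38, and on the slide that held replicate 2 it was −2.85. A further probe, at chr4:58386538-58386597, is named in the files by a transcript identifier alone and described as Musk. It gave a log2 change of −2.42 (SE 0.11, adjusted p = 2.66e-06 in limma).

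Dok7, which encodes the adaptor that MuSK needs, showed the largest fall among the members. At chr5:35423495-35423554 its relative signal was 4.68, 4.63 and 4.85 in Magic-F1 cells, against 47.8, 44.6 and 47.8 in control cells. Dok7 was 9.90-fold lower by this probe (log2 −3.31, SE 0.05, adjusted p = 4.72e-08 in limma). The other probe, at chr5:35430382-35430441, had relative signals of 0.411, 0.395 and 0.401 in Magic-F1 cells, against 7.21, 7.05 and 6.79 in control cells. That was 17.4-fold lower (log2 −4.12, SE 0.05, adjusted p = 2.45e-08 in limma). The probes went the same way and differed in size by 0.82 on the log2 scale, the largest gap between probes of a member (exact permutation p = 0.1, the smallest possible). The fall of Dok7 by its brighter probe exceeded that of Musk by 0.77 on the log2 scale, with the same p.

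Rapsn encodes rapsyn, which anchors the receptor to the cytoskeleton. Its probe spans a gap within chr2:90883848-90885002 (mm9) and is printed here as the one measure of this gene.
Rapsn probe: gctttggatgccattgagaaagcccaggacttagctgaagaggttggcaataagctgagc
The relative signal of Rapsn was 1.51, 1.48 and 1.63 in Magic-F1 cells, against 6.03, 6.13 and 6.34 in control cells. It was 4.003-fold lower (log2 −2.001, SE 0.06, adjusted p = 3.33e-07 in limma). The fall was smaller than that of the brighter probe of the alpha subunit gene Chrna1 by 0.50 on the log2 scale (exact permutation p = 0.1, the smallest possible). With quantile normalization the changes lay closer, at −2.06 for Rapsn and −2.16 for that Chrna1 probe.

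The ligand gene Agrn behaved unlike the receptor genes. At chr4:155539434-155539493 its relative signal was 34.8, 32.7 and 33.7 in Magic-F1 cells, against 38.2, 37.9 and 39.0 in control cells. Agrn was 1.14-fold lower (log2 −0.19, SE 0.05, adjusted p = 0.00812 in limma), close to the median change of all tested probes, which was −0.10. The direction rested on the scaling of the arrays. When arrays were scaled by the spiked-in transcripts the change was 0.27 (adjusted p = 0.00847 in limma), and with quantile normalization it was −0.05 (adjusted p = 0.323). A second Agrn probe, at chr4:155559982-155560041, was well above background on 0 of 6 arrays. A further probe described as Agrn but named by a transcript identifier was well above background on 1 Magic-F1 array and was not tested.

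Lrp4, the agrin receptor gene, was not measurable. Its probe at chr2:91318585-91318644 had processed signals of 6.44, 10.3 and 7.13 in Magic-F1 cells, against 2.70, 5.54 and 3.31 in control cells, and was well above background on 1 Magic-F1 array. Its probe at chr2:91353832-91353891 was not well above background on any array. Rapsn and Lrp4 lie 411.7 kb apart on chromosome 2 of GRCm38.p6, with 11 protein-coding genes between them, and only the first of these was measured well enough to test.

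Ordered by the brightest probe of each gene, the changes ran from Dok7 (−3.31), Chrng (−3.03), Chrnb1 (−2.65), Musk (−2.54), Chrna1 (−2.50), Chrnd (−2.44) and Rapsn (−2.001) to Agrn (−0.19) and Chrne (0.35) on the log2 scale. The 95% intervals of neighbours overlapped from Chrng through Chrnd. They did not overlap between Dok7 and Chrng, between Chrnd and Rapsn, between Rapsn and Agrn, or between Agrn and Chrne. This order depends on the probe taken and on the processing. The dimmer Chrng probe gave −3.36 (95% interval −3.51 to −3.21), which overlapped the brighter Dok7 probe (−3.43 to −3.18). The dimmer Dok7 and Chrna1 probes gave −4.12 and −2.97. By brightest probes with normexp, Musk (−1.04) fell less than Rapsn (−1.83), and Chrna1 (−2.39) fell more than Chrnb1 (−2.12). Chrnd (−1.93) then lay near Rapsn. With quantile normalization Chrna1 (−2.16) fell less than Chrnd (−2.46). The 7 genes that fell at least 4-fold also fell with the spike-in scaling, where their changes by brightest probe ran from −2.85 for Dok7 to −1.54 for Rapsn. That scaling moved the median of all tested probes to 0.36. It also turned the split of all calls to 11142 higher and 7201 lower, against 8745 higher and 9846 lower with the 75th percentile.

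**Figure D4:**
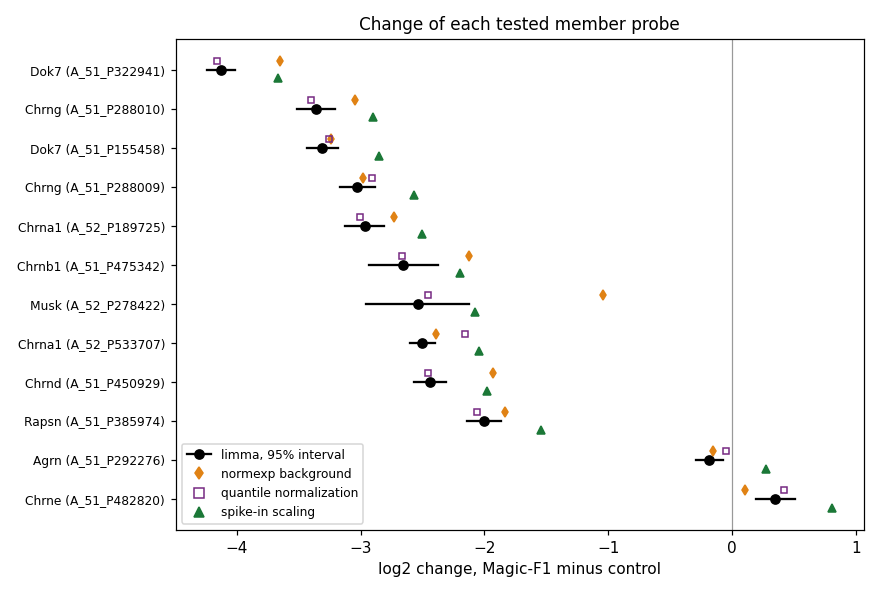
Log2 change (Magic-F1 minus control) of the 12 tested member probes, ordered by size. Black points and bars are limma estimates with 95% intervals, and the other symbols give the estimate with normexp background, quantile normalization or spike-in scaling. Agrn crosses 0 with the spike-in scaling (0.27), and Musk is nearer 0 with normexp (−1.04).

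Other nicotinic receptor genes, of neurons and immune cells, were hardly measurable. Of 13 such genes and their chaperones, 1 was tested. That was Tmem35a, which encodes the chaperone NACHO of neuronal nicotinic receptors, and it fell (log2 −2.09, SE 0.07, adjusted p = 8.74e-07 in limma). Chrna2, Chrna3, Chrna4, Chrna5, Chrna6, Chrna9, Chrna10, Chrnb2 and Chrnb4 were not well above background on any array. Chrna7 was so on 1 control array and Chrnb3 on 1 Magic-F1 array.

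Genes of the synaptic cleft changed in both directions. Of 14, 9 were tested, 4 were lower and 5 higher, with a median of 0.31 (0.77 with spike-in scaling, which turned the sign of Ache). The listed genes with the largest changes were Col13a1, a collagen needed for junction maturation (log2 −2.51, adjusted p = 7.15e-07 in limma, and −1.05 with normexp), the basement membrane collagens Col4a2 (1.21, adjusted p = 1.41e-05) and Col4a1 (1.00, adjusted p = 9.73e-05), and the nidogen gene Nid2 (−0.99, adjusted p = 1.64e-05). Ache, which encodes the enzyme that breaks down acetylcholine, had a log2 change of −0.43 and of 0.03 with the spike-in scaling. Its collagen tail gene Colq was not tested.

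Neuregulin, its receptors and the ETS factors of synaptic transcription were mostly lower. Of 7 tested genes, 5 were lower, 1 was higher and 1 was not called, with a median of −1.52 (−1.06 with spike-in scaling, which turned the sign of Gabpa). Neuregulin (Nrg1) changed by −2.67 (adjusted p = 2.09e-06 in limma, and −1.93 with normexp) and its receptor gene Erbb3 by −2.68 (adjusted p = 7.22e-08). Gabpb1, a partner of the ETS factor GABPA that acts at the N-box, changed by −1.55 (adjusted p = 4.02e-06), while Gabpa itself was not called (−0.17, adjusted p = 0.0756). Etv5, also an ETS factor, was the gene that rose (3.93, adjusted p = 7.42e-07, and 2.01 with normexp).

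Genes that act inside the cell downstream of MuSK showed no common direction. Of 15 tested cytoplasmic partners, 8 were lower, 6 higher and 1 was not called, with a median of −0.42 that became 0.04 with the spike-in scaling, the value of Dvl1. Cdk5r1, the activator of the kinase CDK5, changed by −1.54 (adjusted p = 8.46e-06 in limma). The kinase genes Src (1.34, adjusted p = 6.39e-07) and Abl1 (1.18, adjusted p = 0.00131) were higher, as was the GTPase gene Rac1 (1.14, adjusted p = 1.13e-05), although another Rac1 probe gave −0.52. The postsynaptic scaffold likewise had 5 lower, 4 higher and 2 uncalled genes of 11 tested, with a median of 0.01 (0.47 with spike-in scaling). Its syntrophin gene Sntb1 (−2.58, adjusted p = 6.71e-06), nestin gene Nes (−1.78, adjusted p = 1.83e-07) and dystrobrevin gene Dtna (−1.50, adjusted p = 0.000139) fell, while the plectin gene Plec rose (1.25, adjusted p = 3.73e-06). With normexp Sntb1 changed by −1.05, Dtna by −0.71 and Nes by −1.73, so the order of these genes depended on the background correction.

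Factors that act on the receptor genes changed in both directions. Of 12 tested, 7 were lower, 2 higher and 3 were not called, beside 47.9% lower and 40.5% higher over all tested genes. The median of the 12 was −1.06 (−0.60 with spike-in scaling, which turned the signs of Tcf3, Tcf12 and Msx1). The E-box factors Myog (−4.65, adjusted p = 2.25e-08 in limma), Myod1 (−4.21, adjusted p = 5.44e-08) and Myf6 (−2.11, adjusted p = 3.05e-07) were lower. The brightest probes of their partners Tcf3 and Tcf12 were not called, with changes of −0.01 and −0.02, but other Tcf12 probes gave −1.03 and 1.05. Id3, an inhibitor of E-box factors, was lower (−2.22, adjusted p = 8.58e-08), and Id2, another such inhibitor, was higher (1.73, adjusted p = 6.85e-07). Hdac4, a deacetylase that links nerve activity to receptor gene expression, was at least 1.83-fold higher (adjusted p = 0.000359), a bound because it was not well above background in control cells, and its log2 change with normexp was 0.05.

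Markers of muscle cells fell together with the receptor genes. All 8 tested satellite cell and myoblast markers were lower, with a median of −3.78, so the labelled cell type was compared with markers of several cell types. Their summed relative signal was 16.8 to 17.9 in Magic-F1 cells, against 202 to 222 in control cells. Pax7, the defining satellite cell factor, was not well above background in Magic-F1 cells, and Myf5 and Chodl were not in either group. Of the myoblast markers, Fgfr4 (−5.55), Cdh15 (−4.84) and Dlk1 (−4.74) changed most (−4.76, −4.60 and −4.05 with normexp). All 13 differentiated muscle markers were lower too, with a median of −3.70 and sums of 312 to 333 in Magic-F1 cells, against 2538 to 2676 in control cells. Among them were Actc1 (−6.69), Ckm (−5.75, and −4.97 with normexp) and Cav3 (−4.76). The 10 members summed to 84.5 to 86.3 in Magic-F1 cells, against 367 to 383 in control cells. Most of each sum came from the brightest probes of Chrna1 and Agrn. Their relative signals were 34.5 to 35.1 and 32.7 to 34.8 in Magic-F1 cells, against 193 to 199 and 37.9 to 39.0 in control cells. The falls of the members were thus smaller at the median than those of either muscle list, and Myod1 and Myog stand in more than 1 of these lists.

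Markers of other cell types also moved with the groups, and their part in the fall of the receptor genes was not tested. Macrophage markers were higher for 11 of 12 genes, with a median log2 change of 4.58 (5.04 with spike-in scaling). Their sums were 1393 to 1459 in Magic-F1 cells, against 423 to 451 in control cells, and Mrc1 was not well above background in control cells. The exception, Lyz2, changed by −0.30 by its brightest probe, and by 0.16 with spike-in scaling, while its other probe gave 2.97. That brightest Lyz2 probe, with relative signals of 339, 367 and 366 in control cells, made up most of the control sums. Neutrophil markers were lower for 7 of 7 tested genes, with sums of 0.202 to 0.222 in Magic-F1 cells, against 583 to 627 in control cells, and S100a9, Elane, Ltf, Camp and Ngp were not well above background in Magic-F1 cells. All 7 tested adipocyte markers rose, their sums being 433 to 461 in Magic-F1 cells, against 59.1 to 65.9 in control cells. The samples of both groups thus held signals of several cell types. The markers do not establish the labelled cell type, and satellite cells is used here as the name in the labels.

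The remaining lists were lower or mixed. Fibroblast markers were lower for 5 and higher for 3 of 8 genes, with a median of −0.28 that was 0.18 with spike-in scaling, and with sums of 736 to 749 in Magic-F1 cells, against 1061 to 1089 in control cells. Among these 8 genes Ly6a changed most (−4.41, and −4.26 with normexp and −3.95 with spike-in scaling). Endothelial markers were lower for 5 and higher for 1 of 6 tested genes, with sums of 0.235 to 0.261 in Magic-F1 cells, against 7.96 to 8.34 in control cells, and Pecam1, Cdh5 and Robo4 were not well above background in Magic-F1 cells. Their median log2 change was −5.13, and −1.39 with normexp, and Kdr, the gene that was higher, changed by 0.64 and by −0.03 with normexp. Cells of the nerve contact were looked for separately. Schwann cell markers were lower for 5 and higher for 1 of 6 tested genes, with sums of 24.8 to 26.3 in Magic-F1 cells, against 32.2 to 33.7 in control cells, and Gfap was not well above background in either group. Mbp was the Schwann cell gene that rose (5.39). Its relative signal was 14.9 to 15.9 in Magic-F1 cells, against 0.353 to 0.382 in control cells, and made up most of the Magic-F1 sums. The motor neuron genes Chat and Slc18a3, which mark cholinergic neurons, were not well above background on any array, and of 8 such markers none was so in Magic-F1 cells. Their sums were 0.0722 to 0.0814 in Magic-F1 cells, against 0.228 to 0.259 in control cells, and the 2 tested genes, Isl1 and Prph, were lower (−3.13 and −3.48, and −0.62 and −0.68 with normexp).

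**Figure D5:**
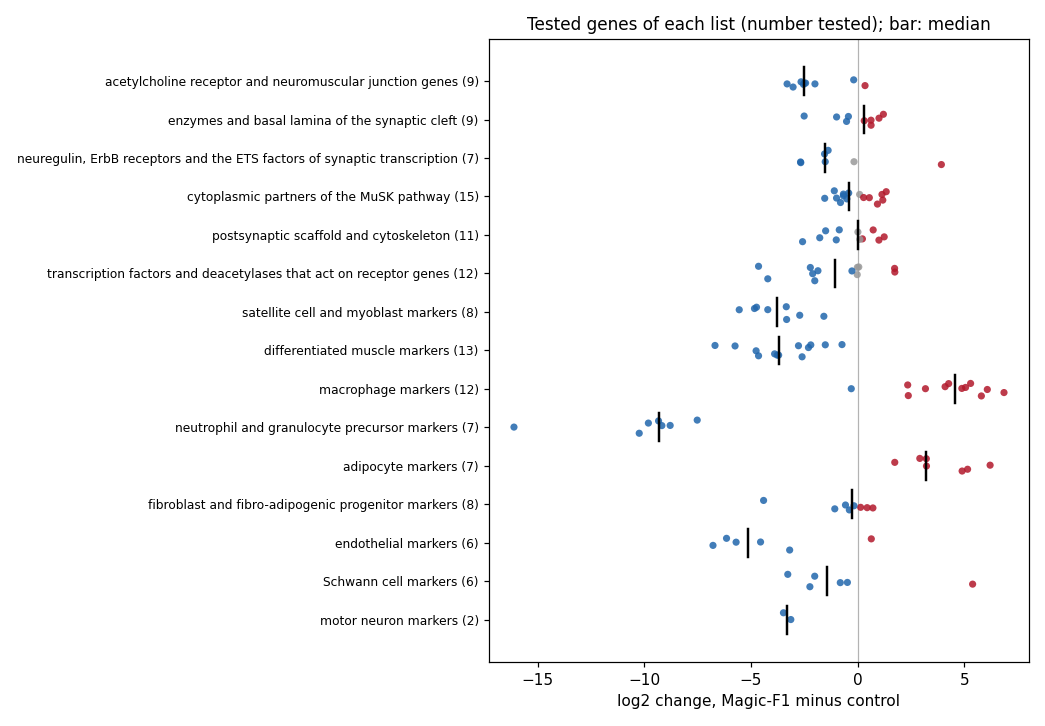
Log2 change (Magic-F1 minus control) of each tested gene in the member set and in 14 further gene lists, with the number tested in brackets and a bar at the median. Blue points passed the threshold lower, red points higher, and grey points did not pass. The members' median of −2.50 lies above those of the myoblast (−3.78) and differentiated muscle (−3.70) lists.

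The genes whose 6 values were closest to those of a member were found by the Euclidean distance of centred log2 values over 12956 named genes. For Chrna1 these were Ldb3 (distance 0.05), Acta2 (0.06) and Gins2 (0.06). For Chrng they were Tuba1a (0.07), Clec4e (0.08) and Bok (0.09). For Musk they were Med18 (0.22), Apbb1 (0.27) and Loxl4 (0.28), farther away. With 6 arrays in 2 groups, the distance mostly reflects a change of like size, and it is given as a description.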

How the data were processed

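Total RNA of 6 samples was labelled with Cy3 and hybridised to single-colour Agilent arrays of design 014868, per the labels' protocols and file headers. The background-subtracted intensity of a spot came from Agilent Feature Extraction 10.5.1.1, per the file headers, with no scaling between arrays and with probe positions on mm9. The authors also deposited a log2 value per spot and array, which for 4 arrays equals the log2 processed signal. Both columns numbered 1 hold other values on the same scale, from which the processed signal differed with an SD of 0.456 (Magic-F1) and 0.472 (control), by a step not given in the sources. Column medians of the deposited log2 values, in the order of replicates 1, 2 and 3, were 3.53, 3.50 and 3.59 in Magic-F1 and 3.32, 3.35 and 3.40 in control.

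From the scanner files, control spots were left out and outlier spots (59 to 89 per array) set to missing. Log2 processed signals were reduced by the array's 75th percentile, and spots of a probe were averaged. Of 41174 probes, 25097 were named by accession and 1640 by synonym through the RefSeq gene table of GRCm38.p6, and 14437 kept the file's name. Groups were compared with limma 3.58.1 (lmFit, eBayes) in R 4.3.3, with Benjamini-Hochberg adjustment over 21188 tested probes at 0.05, 2-sided. The code was tested on simulated data. Genes outside the members are given by the brightest of their tested probes. Differences between members were tested by exact permutation over all 20 splits of the arrays.

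All members were named, and from each list other than the cell type markers up to 4 genes, taken by passing the threshold and then by the largest change. Genes of the cell type marker lists were not all named by this rule. For Chrna1, Chrng and Musk, the 3 closest genes were named. Other genes (Ache, Colq, Gabpa, Tcf3, Tcf12, Id2, Hdac4, Pax7 and further marker genes) were chosen after their values were seen. One marker gene is not reported here. Members and lists were chosen with earlier results of these data known. Slide 1 held replicates 1 and 3, and slide 2 held replicate 2, of either group. The SD of the log2 difference between 2 arrays of a group was 0.0491 to 0.154 over 5872 bright probes. Precision is limited by the small number of arrays. At least N-fold marks a bound, the brighter group's mean against the lowest signal well above background, or the probe's own if higher, in the dim group. Alternatives covered background correction, scaling, filters, blocks, variance models, the deposited table and leaving out each replicate.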

Additional observations from a re-analysis of the deposited data

Results flagged for a closer look

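Signal was seen on single Magic-F1 arrays for 2 probes that entered no comparison. The Chrnb3 probe A_51_P161793 had a processed signal of 45.04 on Magic-F1 replicate 1, against 1.79 to 2.59 on the other 5 arrays, of which the control arrays gave 1.89 to 2.52. The Lrp4 probe A_51_P195756 had a processed signal of 10.26 on Magic-F1 replicate 2, against at most 7.13 on the other arrays and 2.70 to 5.54 on the control arrays. Each was well above background on that 1 array and on 0 control arrays. Only signal higher on a Magic-F1 array was searched for here. The Chrna7 probe A_51_P108228, well above background on 1 control array, had 17.13 on control replicate 3, against 5.12 to 6.83 elsewhere. The Agrn probe named by a transcript identifier was well above background on 1 Magic-F1 array, but its highest relative signal, 0.0386, was on control replicate 1.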

How the results depend on the processing

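The number of called probes ran between 16043 of 18143 (well above background on all 6 arrays) and 19878 of 41174 (all probes tested) over the alternatives, against 18591 of 21188. Leaving out 1 array gave 18017 to 18681 calls over all probes and 12 of 12 member probes. Of the 12 member probes, 11 were called with normexp, quantile normalization, median scaling, within slide 1 and with all probes tested, where 1 of the 4 dim probes also passed (12 of 16), and 12 with the other settings. The 10 probes of Chrna1, Chrnb1, Chrnd, Chrng, Musk, Rapsn and Dok7 kept direction and call under all 18 alternatives. Agrn reversed to 0.27 with spike-in scaling, which used 8 of 10 spike-in probes, and was not called with quantile normalization (−0.05), median scaling (−0.06), all probes tested (adjusted p = 0.0512 in limma) or within slide 1 (−0.17). Chrne was not called with normexp (0.10). The cause was not tested. Fitted with the replicate number as a block, 18548 probes and 12 member probes were called. Deviations from the group means correlated by −0.00293, 0.108 and 0.0689 between same-numbered arrays, and by −0.115 to 0.0484 between the others. With 3 arrays per group these values cannot settle whether the numbers pair the samples. Low signal over background limits what Musk, Chrne and Lrp4 can show. The fibroblast median was −0.28, and 0.18 with spike-in scaling.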
